A study of Homo sapiens with 6 samples.

Results

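The regulatory landscape of MYC was described from the SMARCA4 peaks that fall in its neighbourhood in K562 cells. MYC encodes the transcription factor that drives growth and proliferation genes, and PVT1 is the long non-coding RNA gene that follows it on the same strand. The peaks were chosen by position alone, as all listed peaks that overlap hg19 chromosome 8 from 127700000 to 131000000 by at least 1 bp. This rule took 39 of the 28265 peaks of the list, 1082 of which lie on the same chromosome.

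K562 is a human chronic myelogenous leukaemia line, and all libraries come from this 1 line. Chromatin was crosslinked with 2 mM disuccinimidyl glutarate (30 min) followed by 1% formaldehyde (10 min). There were 3 libraries precipitated with an antibody to SMARCA4 and 3 input libraries without the antibody step; the deposited description calls the replicates technical and counts 1 input, whereas the text of the study calls them biological. The deposited list keeps what was called in at least 2 of these replicates out of 3 and gives a chromosome, a start and an end for each. It carries no height, no read number and no value per replicate, so neither the depth nor a spread between replicates could be taken from it, and every comparison here is a description without a test.

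SMARCA4, also known as BRG1, is an ATPase subunit of the SWI/SNF complexes, which use ATP to move or evict nucleosomes at promoters and enhancers. MYC is controlled in a tissue-specific way by elements spread over the gene-poor DNA on either side of it, several of them inside PVT1, and in myeloid leukaemia a far downstream cluster of SMARCA4-occupied elements is known to act on it. K562 cells express GATA1, the erythroid factor that binds GATA motifs. The deposited list records where SMARCA4 was enriched and cannot show that a peak is an enhancer or that it acts on MYC, so the name of distal enhancers was not tested, and the peaks are called by their place.

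Most peaks of the interval lay on the downstream side of MYC, where it also reaches further. Distances were measured from the start of the canonical MYC transcript, at 128748477 on the plus strand, to the peak centre, with positive values downstream. Of the 39 peaks, 35 had their centre downstream and 4 upstream of that start. The interval extends 1048 kb upstream and 2252 kb downstream, and within 1048 kb of the start 21 peaks were downstream and 4 upstream. Beyond the left edge the next listed peak was 129 kb away, and beyond the right edge it was 4.65 kb away. To the right of the interval 4 more listed peaks lie over CYRIB, a gene that the right edge cuts. The most distal peaks of the interval were at -118 kb and at 2237 kb. Their position on the right thus depends on the edge. The median absolute distance over the 39 peaks was 605 kb (95% order-statistic interval 224 to 1711 kb). Within 10 kb of the start there were 4 peaks, within 100 kb there were 6, and 14 lay more than 1 Mb away. Apart from the peak at -118 kb, the peaks thus formed a group from MYC through PVT1 and beyond it to 821 kb. Another group ran from 1581 kb onwards, with nothing listed between these groups. Within the latter group, 220 kb from 1957 to 2177 kb also held no listed peak.

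**Figure D1:**
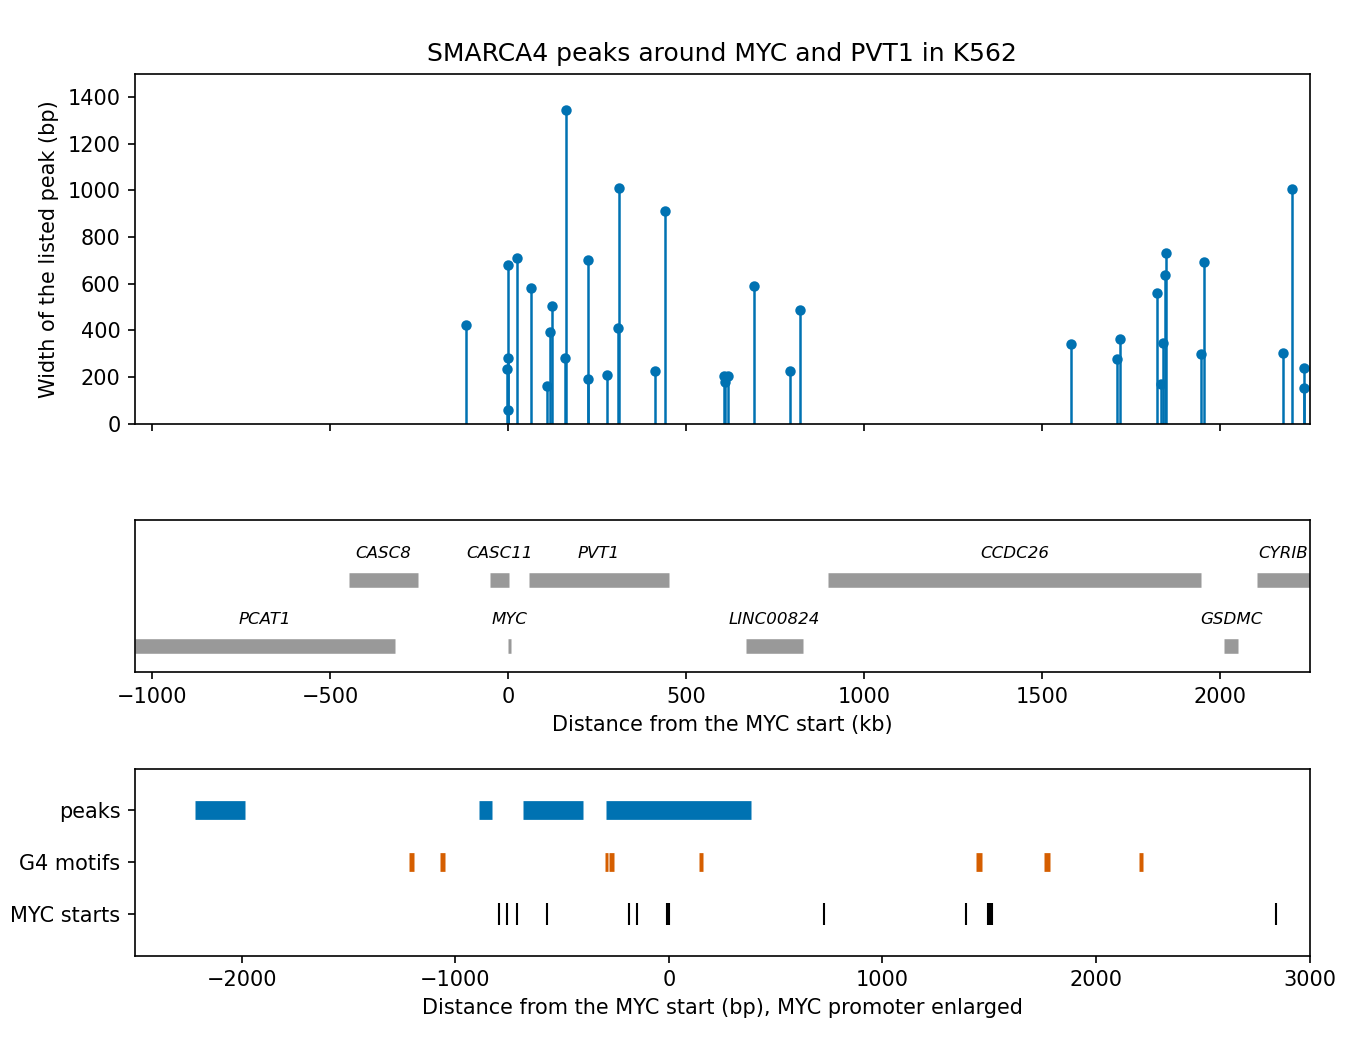
Top, each of the 39 peaks as a stem at the distance of its centre from the MYC start (kb), with the peak width in bp as its height; middle, selected annotated genes as bars on the same axis, cut at the edges of the interval; bottom, the MYC promoter enlarged (bp), with peaks, G4 motifs and annotated MYC transcript starts. The widest peak, 1342 bp, stands inside PVT1 at 163 kb, and the largest stretch between 2 peaks, 760 kb, lies mostly over CCDC26.

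Peaks were few upstream of MYC. From the left edge of the interval to 5 kb before the most upstream MYC start, 1043 kb held 1 peak, or 0.959 per Mb. That peak, from 128630623 to 128631044, was 422 bp wide and lay in an intron of an unnamed long non-coding RNA gene. The first 931 kb of the interval held none. Annotated there are the long non-coding RNA genes PCAT1 (in part), CASC19, PRNCR1, CASC8 and CCAT2. The protein-coding gene POU5F1B, a retrogene related to the pluripotency factor OCT4, is annotated there as well. These genes were named after the absence of peaks had been seen. PCAT1 begins left of the interval, and the listed peak 129 kb beyond the left edge lies within it. A missing peak is not evidence that SMARCA4 does not bind. Reads of 75 bases taken from the first 931 kb mapped back to their own place in 94.8% of cases, close to the 95.3% over the whole interval.

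At the MYC promoter the list held 3 peaks within 1 kb of annotated MYC starts. The largest, from 128748183 to 128748863, was 681 bp wide, reached from -294 to 386 bp and covered the canonical start, and its centre, 46 bp from that start, was the nearest of all. A peak of 282 bp reached from -685 to -404 bp, and a fragment of 58 bp from -887 to -830 bp. The gaps between them were 144 and 109 bp, so that merging peaks at most 500 bp apart gave 1 region of 1274 bp from -887 to 386 bp. Regions built from the overlap of replicate peaks can be split in this way, and whether these are 3 sites or 1 cannot be told from the list. Of the 14 distinct annotated MYC starts, 5 were covered by a peak, with no share over all annotated starts taken.

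Another peak near MYC, 235 bp wide from -2218 to -1984 bp, lay 46 bp from a start of CASC11, a long non-coding RNA gene read in the opposite direction. Motifs named for a single peak are counted over the whole peak unless its central 200 bp are named. This peak held the CTCF motif, the sequence bound by the factor that anchors chromatin loops, and this was 1 of the 2 CTCF motifs found in the 39 peaks (5.13% of peaks, interval 1.42 to 16.9%, against 3.15% of the list). The other was in the 910-bp peak at 441 kb, near the far end of PVT1. The interval as a whole holds 27 matches of this motif, of which 25 lay outside peaks. Peaks cover 0.525% of the interval, and per kb the motif occurred 0.115 times in them, from 2 matches, and 0.0076 times outside.

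The promoter peak of MYC was rich in G and C, and 2 of its features touch on G-quadruplexes (G4s), the 4-stranded structures of guanine-rich DNA. The G4 motif searched, on both strands, had 4 stretches of 3 or more guanines, each parted from the next by 1 to 7 bases. The 681-bp peak had a GC content of 64.0% and held 2 such motifs, from -281 to -255 bp and from 139 to 161 bp, both on the minus strand. Among all listed peaks at coding starts the median GC content was 65.1%, and 41.6% of them held such a motif. A further motif, from -299 to -283 bp, crossed the left edge of the 681-bp peak at -294 bp. Of the 3 forms of the G4 Myc oligonucleotide of the study, the 27-base one matched the genome without mismatch from -303 to -277 bp on the minus strand, with 18 of its bases inside the peak and 9 outside. The 23-base and 22-base forms had 5 and 3 mismatches at their best match around the start, from -301 to -279 bp and from -301 to -280 bp. The best-known G4-forming element of the promoter therefore sits at the border of a listed region, and inside the region once neighbouring peaks are merged. Over MYC and the 5 kb before it there were 8 G4 motifs, of which 2 were wholly inside a listed peak and 3 wholly inside a merged one. A motif marks letters that can form the structure and says nothing of whether it is folded in these cells.

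Between MYC and PVT1 there was 1 peak, from 128772746 to 128773454, at 24.6 kb. A GATA motif is AGATAA or one of its variants with T first or G last, in either orientation. The peak was 709 bp wide, held 2 GATA motifs and was the only one of the 39 outside any annotated gene.

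PVT1 held the densest series of peaks among the longer parts of the interval. Its annotated body of 393 kb was overlapped by 13 peaks, which is 33.1 per Mb, against 11.8 per Mb over the whole interval, 7.57 per Mb of known sequence on the chromosome and 9.97 per Mb over the autosomes and X. Their centres ran from 64.6 to 441 kb from the MYC start, and their median width was 412 bp (interval 209 to 910 bp). Of the 13 peaks, 4 overlapped a PVT1 exon and 9 lay outside its exons. The extent of the gene here is that of the annotation used, which lists 190 PVT1 transcripts with 132 distinct starts. The first of these starts, at 58.3 kb, had no peak within 1 kb, the nearest being 6021 bp away. Internal starts did: 32 of the 132 lay within 1 kb of a peak and 13 were covered by one. Many starts lie near the same peak, and no share over all annotated starts was taken.

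The peaks next to internal PVT1 starts numbered 4. They were 392 bp wide at 118 kb, 504 bp at 124 kb, 412 bp at 309 kb and 1011 bp at 313 kb. The first pair held 3 AP-1 motifs in their central 200 bp and no GATA motif there, and the second pair held 4 GATA motifs and no AP-1 motif there. Over the whole peaks the contrast was less sharp, since the peak at 124 kb also held 1 GATA motif and that at 313 kb 1 AP-1 motif.

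PVT1 also carried the widest regions of the locus. Of the 5 widest, 3 were inside it. The widest, from 128910518 to 128911859 in an intron, measured 1342 bp, and 2.63% of all listed peaks were wider. It held 4 GATA and 3 AP-1 motifs. The peak of 1011 bp from 129060536 to 129061546 held 6 GATA motifs, 1 AP-1 motif and 1 G4 motif, and the peak of 910 bp from 129188863 to 129189772 held 3 GATA motifs and 1 AP-1 motif. Outside PVT1 the others of this set were a peak of 1005 bp in CYRIB and one of 730 bp in CCDC26. Widths over the locus did not stand apart from the list: the median was 347 bp (range 58 to 1342 bp), the 368 bp of all peaks lay inside its 95% order-statistic interval, and 3 peaks (7.69%) reached 1000 bp against 6.78% of all peaks.

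Other PVT1 peaks were narrower than these. The first inside the gene, 582 bp wide at 64.6 kb, held 2 GATA motifs and 1 CAGCTG. At 108 kb a peak of 161 bp held none of the motifs searched, and neither did the 191-bp peak at 224 kb, which ends 12 bp before the peak that contains MIR1205. The peak of 283 bp at 160 kb held 1 GATA motif and stands 2240 bp before the widest peak of the locus. The peak of 209 bp at 278 kb held 2 GATA motifs and 1 SP/KLF motif. Widths along the gene ran from 161 to 1342 bp.

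All 3 annotated microRNA genes inside PVT1 lay wholly within a peak. MIR1205 is in the 701-bp peak at 224 kb, which with 7 GATA motifs had the most of any peak of the locus. MIR1207 is in the 1011-bp peak at 313 kb, 62 bp from its right edge, and the G4 motif of that peak overlaps the microRNA gene. MIR1208 is in the 226-bp peak at 414 kb, which held 1 GATA and 1 AP-1 motif. Of the 11 annotated microRNA genes of the interval, these 3 were the ones that a peak overlapped (27.3%, interval 9.75 to 56.6%), against 3.51% of the 3049 annotated over all chromosomes; microRNA genes of 1 host gene are not independent, and the group was described after the overlap had been seen. What the peaks have to do with the microRNAs was not tested.

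Between PVT1 and CCDC26, 447 kb held 6 peaks (13.4 per Mb), most of them narrow, with a median width of 216 bp (range 179 to 592 bp). The first 3, from 605 to 618 kb, lay in an intron of an unnamed long non-coding RNA gene and the other 3 in LINC00824, 1 of them 124 bp from a LINC00824 start. A composite of CTG, 7 to 9 bases and a GATA motif, the arrangement bound by the erythroid complex of TAL1 and GATA1, matched 10 times in 8 of the 39 peaks (20.5%, interval 10.8 to 35.5%), against 15.2% of the list, inside the interval. The peaks at 605 and 618 kb held 2 each, and those at 64.6, 224, 313, 793, 1822 and 1956 kb held 1 each. The 489-bp peak at 821 kb held a G4 motif in its central 200 bp and no GATA motif. The 179-bp peak at 608 kb had the lowest share of 75-base reads that mapped to their own place, 70.0%, whereas in 36 of the 39 peaks all did.

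CCDC26, a long non-coding RNA gene read in the direction opposite to MYC, covers 1050 kb and was overlapped by 9 peaks (8.57 per Mb). All of them lay in its right part, from 1581 to 1946 kb, and 5 were gathered between 1822 and 1847 kb. Their median width was 347 bp, and 6 of the 9 held a GATA motif in the central 200 bp (66.7%, interval 35.4 to 87.9%), an interval that holds the 40.2% of the list. The first of the series, 341 bp wide at 1581 kb, held 2 GATA motifs and 1 AP-1 motif. It was followed by peaks of 278 bp at 1711 kb and 363 bp at 1720 kb with 2 and 3 GATA motifs. In the gathered group, the peak at 1822 kb held 3 GATA motifs and 2 copies of CAGCTG, and that of 171 bp at 1836 kb held 1 GATA motif. The pair of 637 bp at 1846 kb and 730 bp at 1847 kb stood 440 bp apart, and the wider of them held 2 GATA motifs and 2 copies of CAGCTG while the other held none of the motifs searched. The last, 299 bp wide at 1946 kb, covered a start of CCDC26 and held 2 copies of CAGCTG but no GATA motif. The 347-bp peak at 1839 kb held 2 copies of CACGTG, the E-box that MYC and MAX bind, out of 4 in all peaks of the locus. Peaks with this E-box numbered 3 of 39 (7.69%, interval 2.65 to 20.3%), against 9.90% of the list. Of 76 distinct CCDC26 starts, 54 lay within 1 kb of a peak, and 4 of the 9 peaks were within 1 kb of one. The 54 starts thus crowd around these 4 peaks, and no share over all annotated starts was taken. The stretch from 821 to 1580 kb, with no listed peak, had 94.0% of its reads mapping to their own place.

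To the right of CCDC26 there were 5 peaks in 304 kb. A peak of 695 bp at 1956 kb held 5 GATA motifs. The other 4 were in CYRIB, a protein-coding gene whose product binds the GTPase RAC1, and its canonical start lies beyond the interval at 2280 kb. The 1005-bp peak from 130951717 to 130952721, at 2204 kb, covered another coding start of CYRIB; with 65.7% GC, 4 SP/KLF motifs and 2 G4 motifs it was, beside the MYC promoter peak, the other with more than 1 G4 motif. The other CYRIB peaks were 305 bp wide at 2177 kb with 2 GATA motifs, 239 bp at 2236 kb with a RUNX motif, and 152 bp at 2237 kb with 1 AP-1 motif and 1 CACGTG. The CYRIB peaks were taken in by the interval alone. No peak overlapped GSDMC, the gasdermin gene of the interval.

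GATA motifs were the most frequent of the letters searched. Over the whole length of the 39 peaks there were 72 matches. For the shares that follow, the motif was sought within the middle 200 bp, so that wide peaks count no more than narrow ones and for narrower peaks the flanks are included, which left 45 matches. Of the 39 peaks, 26 held at least 1 (66.7%, 95% Wilson interval 51.0 to 79.4%), against 40.2% of all listed peaks. Among the 45 central matches AGATAA made up 20, AGATAG 14, TGATAA 7 and TGATAG 4. The whole list is a mixture in this respect: 51% of all peaks were within 1 kb of an annotated start, and 18.9% of those held a GATA motif. Among the 13841 listed peaks away from starts the share was 62.4%, and among the 21 such peaks of the locus it was 71.4% (15 peaks, interval 50.0 to 86.2%), so that the list's value lay inside the interval. Intervals cover counting error only, and neighbouring regions are not independent replicates.

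**Figure D2:**
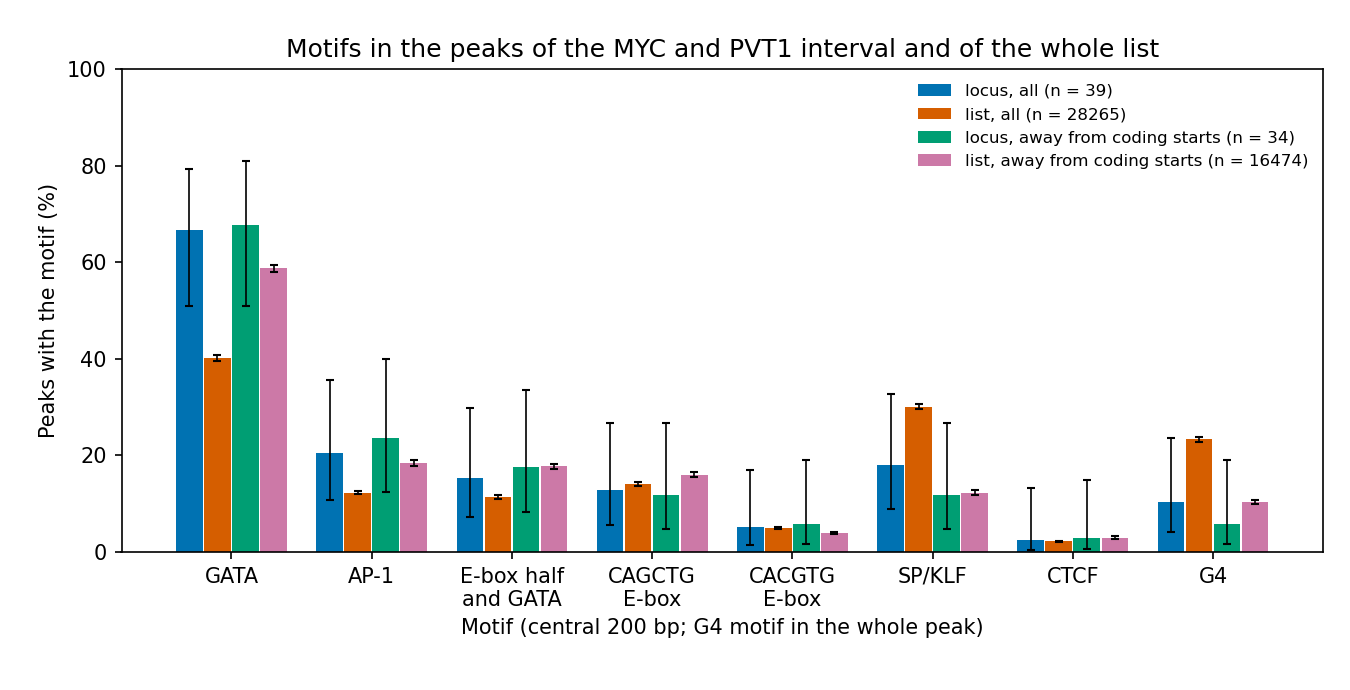
Share of peaks (%) with each motif in the central 200 bp (G4 motif, whole peak), for the 39 peaks of the locus, the 28265 peaks of the list, and in each the peaks away from protein-coding starts; bars start at 0 and error bars are 95% Wilson intervals. GATA motifs were in 66.7% of the locus peaks and 40.2% of the list, but 67.6% and 58.8% away from coding starts.

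Most starts near the peaks of the locus were those of non-coding transcripts. Of the 39 peaks, 18 (46.2%, interval 31.6 to 61.4%) were within 1 kb of an annotated transcript start, near the 51% of the list. Of these, 5 were near a start of a protein-coding transcript, 3 at MYC and 2 at CYRIB, and PVT1 and CCDC26 starts had 4 peaks each. Peaks near a start of any kind held a GATA motif in 61.1% of cases (11 of 18, interval 38.6 to 79.7%), against 18.9% for such peaks in the list. These groups are unlike, since 11791 of the 14424 such peaks in the list were at coding starts, against 5 of 18 in the locus. When peaks away from protein-coding starts were compared instead, a choice made after seeing the data, 23 of 34 held one (67.6%, interval 50.8 to 80.9%) against 58.8% in the list, and the difference was within the interval. At coding starts 3 of 5 held one (60.0%, interval 23.1 to 88.2%) against 14.2% in the list, which lies below that interval. Of the 5 peaks 3 are those at the MYC promoter, which may be 1 site, so this contrast depends on the split. In the merged MYC region, from -887 to 386 bp, the GATA motifs from -852 to -847 bp and from -6 to -1 bp lie outside the central 200 bp.

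AP-1 motifs, read as TGAGTCA or TGACTCA, were in 8 of the 39 peaks (20.5%, interval 10.8 to 35.5%), against 12.3% of all peaks. Away from starts the share was 23.8% in the locus (5 of 21, interval 10.6 to 45.1%) and 19.3% in the list. PVT1 had 5 of these 8, in 13 peaks (38.5%, interval 17.7 to 64.5%). Both GATA and AP-1 motifs were in the centre of 5 peaks, at -118, 163, 414, 441 and 1581 kb, which is 12.8% (interval 5.60 to 26.7%) against 6.32% of all peaks. Away from starts it was 19.0% (4 of 21, interval 7.67 to 40.0%) against 10.8%. For both measures, over all peaks and away from starts, the list's share lay inside the interval of the locus.

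G4 motifs were found in few peaks. They were wholly inside 4 of the 39 peaks (10.3%, interval 4.06 to 23.6%), against 23.4% of all peaks, which is inside that interval. Away from starts 1 of 21 held one (4.76%, interval 0.846 to 22.7%), against 8.26% in the list. In the central 200 bp the share was 5.13% (interval 1.42 to 16.9%), against 13.5% of the list. Away from coding starts, a comparison chosen after seeing the data, it was 5.88% (interval 1.63 to 19.1%), against 10.3% in the list. Both values of the list lay inside these intervals. With loops of up to 12 bases, 17.9% of the locus peaks held a G4 motif. No share of the list with such loops is given here. The 17.9% therefore cannot be set against the 23.4% of all peaks, which is for the shorter loops. The 4 peaks were the MYC promoter peak, the MIR1207 peak, the peak at 821 kb and the CYRIB peak, and together they held 6 motifs. The interval holds 311 G4 motifs in all, and 6 of them (1.93%, interval 0.887 to 4.14%) were inside a listed peak. Per kb the motif occurred 0.346 times in peaks and 0.0929 times outside. GATA motifs occurred 4.15 times per kb in peaks and 2.64 outside, and AP-1 motifs 0.808 and 0.178 times.

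The base composition differed from that of the list as a whole. The median GC content of the 39 peaks was 45.5% (interval 43.7 to 48.8%), against 53.2% for all peaks. Away from starts it was 43.97% (interval 40.3 to 47.7%), against 46.1% in the list, inside that interval. SP/KLF motifs, read as GGGCGG, were in the centre of 7 peaks (17.9%, interval 8.98 to 32.7%) against 30.1% of the list, inside the interval. Away from starts they were in 2 of 21 (9.52%, interval 2.65 to 28.9%) against 9.72% of the list. The ETS motif CCGGAAGT was in none of the 39 peaks, which are too few to tell this from the 1.98% of the list, and the RUNX motif TGTGGTTT was in the centre of 1 (2.56%, interval 0.454 to 13.2%, against 1.66% of the list).

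**Figure D3:**
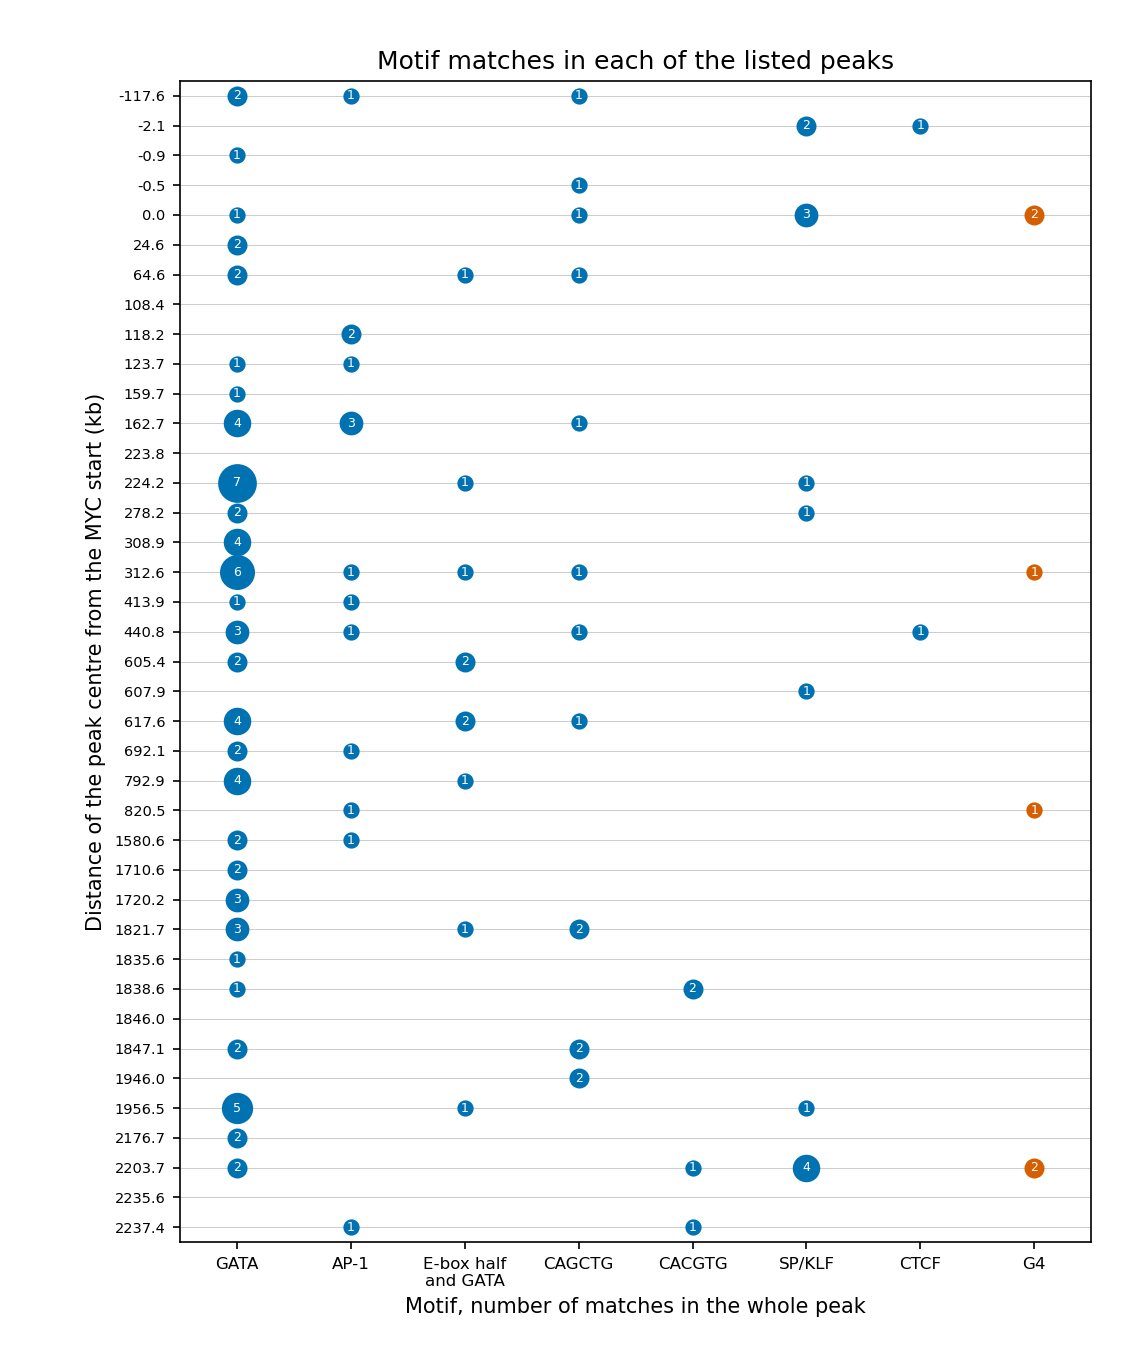
Each row is a peak of the locus, labelled by the distance of its centre from the MYC start (kb); a dot marks a motif and its number gives the matches in the whole peak, with larger dots for more matches and G4 motifs in orange. The peak at 224 kb has the most GATA matches, 7, and G4 matches appear in 4 rows.

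For its few genes the interval held many peaks. The genome was divided into 835 tiles of the same length on the autosomes and X, each with at least 80% known bases, and the median tile had 23 peaks and 16 starts of protein-coding genes. The interval has 39 peaks and 3 such starts (POU5F1B, MYC and GSDMC). Fewer peaks were counted in 583 tiles (69.8%) and more in 246. Among the 71 tiles with at most 3 coding starts, a class chosen after seeing the data, the median was 1 peak and the highest count was 24. With tiles of 4 starts taken in as well, 1 of 90 tiles had more peaks than the interval, with 51. That tile, from 128700040 to 132000040 on the same chromosome, is mostly the locus itself: it shares 69.7% of its length with the interval and 38 of the 39 peaks, and its starts are those of MYC, GSDMC, CYRIB and ASAP1. Among the tiles of this wider class that do not overlap the interval the highest count was again 24. These ranks are a description, since the interval was taken up because of MYC and its edges were not drawn by the tiling; the 4 peaks in CYRIB count here although its canonical start does not.

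**Figure D4:**
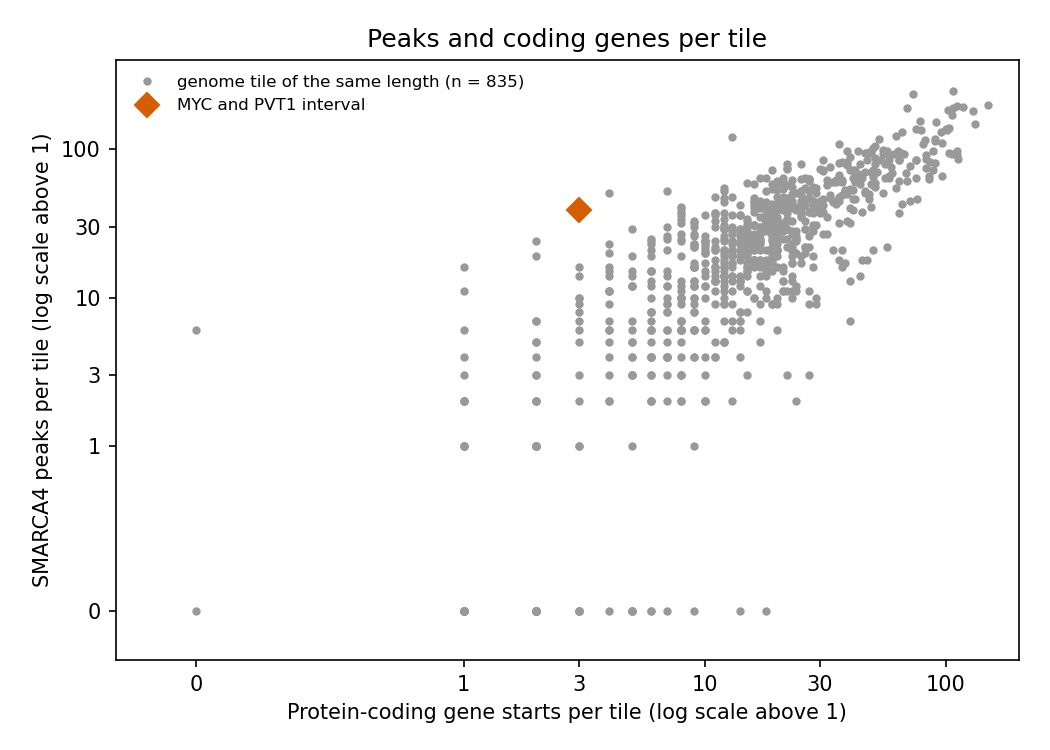
SMARCA4 peaks against protein-coding gene starts for 835 genome tiles (grey) of the same length as the interval and for the MYC and PVT1 interval (orange diamond); both axes are logarithmic above 1. The interval, with 39 peaks and 3 coding starts, lies above the 71 tiles that have as few coding starts, whose highest count is 24; the grey point with 51 peaks and 4 starts overlaps the interval.

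The genes that work with MYC were also looked up. MYC binds DNA as a partner of MAX; MXD1, MXI1, MXD3, MXD4, MNT and MGA compete for MAX, MLX with MLXIP and MLXIPL forms the parallel branch that senses nutrients, and MYCN and MYCL are the paralogues of MYC. Of these 13 genes, 12 had a peak within 1 kb of a coding start (92.3%, interval 66.7 to 98.6%), against 46.8% of all 19821 protein-coding genes. The exception was MYCN, whose nearest peak was 209688 bp away. A gene counted when any of its coding starts had a peak, and the 2 sets were not matched for number of starts or for expression. The widest promoter peaks as listed were 1407 bp at MNT, 945 bp at MXD4, 925 bp at MYCL and 892 bp at MGA, all wider than the 681 bp at MYC. Merged, however, the MYC peaks give 1274 bp, more than the listed widths at MXD4, MYCL and MGA. MNT had 5 peaks near its starts with 9 G4 motifs, and MXD4 2 peaks with 8, against 3 peaks with 2 at MYC. The merged MYC region held 3. CACGTG was found in peaks at MAX, MXD1, MXD3, MNT, MLX and MLXIP, in 8 of the 26 peaks of the network genes (30.8%, interval 16.5 to 50.0%), against 13.9% of all listed peaks at coding starts. MNT alone gave 3 of these 8 peaks, with 5 of the 26 peaks. None of the 3 peaks at MYC held CACGTG, and they are too few to compare with the share of the list.

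To show what such a G4 motif looks like at a promoter of this network, the one nearest to the most upstream coding start is given for each gene where a motif of at most 30 bases lay inside a peak and within 1 kb upstream of that start, which 3 genes had. Sequences are of hg19, 5′ to 3′ on the strand of the guanine runs, which are in capitals. The one of MLXIPL (chr7:73038932-73038949) lies 59 bp upstream of the start, that of MXD4 (chr4:2263926-2263946) 90 bp and that of MNT (chr17:2305315-2305335) 917 bp, and all are on the plus strand while the genes are on the minus strand.
MLXIPL: GGGtGGGcGGGGcctGGG
MXD4: GGGGGcGGGcgccGGGccGGG
MNT: GGGGccGGGGccaGGGcGGGG
In these motifs, as in the 3 in or touching the 681-bp MYC peak, the guanine-rich strand is the one opposite to the coding strand of the gene. This did not hold for all motifs around MYC, since those from -1074 to -1048 bp, from 1440 to 1468 bp and from 1757 to 1786 bp, all outside the peaks, were on the plus strand.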

How the data were processed

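Per the methods of the study, the authors used cutadapt for trimming, BWA for alignment to hg19, Picard and SAMtools for duplicate removal and MACS2, with input as control, for peaks of each replicate, and retained what at least 2 of 3 replicates shared. The deposited values are region boundaries in bp; depth per library is not in the list. Positions are counted from 1. The hg19 sequence and GENCODE transcripts lifted to it (254376) were used with Python 3.11.15, scipy 1.17.1 and matplotlib 3.10.9. Overlap meant at least 1 bp. Motifs were sought on both strands and G4 motifs without overlap within a strand. Reads of 75 bases, cut every 25 bases, were mapped with minimap2 2.31 (mapping quality of at least 10). Motif and overlap searches were tested on simulated data. Named were MYC, PVT1, the network genes and other named genes that a peak of the interval overlapped or lay within 1 kb of. PCAT1, CASC19, PRNCR1, CASC8, CCAT2, POU5F1B and GSDMC, which have no such peak inside the interval, were named after their values were seen. ASAP1 was named as a start of a tile. The members and lists were chosen with earlier results of these data known, and the segments between genes were set after seeing the peaks. No tests were made. Signal tracks, copy number and endogenous G4 sites were not analysed here.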

Additional observations from a re-analysis of the deposited data

How the results depend on the processing

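No paired analysis was possible because the list used here holds the replicates merged, with no value for each, so that none of them could be left out. The number of peaks, 39, was 33 with peaks of at least 200 bp, 35 with peaks at most 500 bp apart merged and 28 with the interval narrowed by 500 kb at each end. Of 39 recomputed values, 37 stayed within their 95% interval or, for counts and densities, within 1.5 times the first value. One exception was the number of peaks within 1 kb of a start, which went from 18 to 5 when only starts of protein-coding transcripts were used, a change that follows from leaving out the non-coding starts. The other was the highest number of peaks in a tile with few coding starts, which went from 24 to 51 when tiles with 4 starts were taken in, because the tile added overlaps the locus. The G4 motif share ran from 5.13% in the central 200 bp to 17.9% with loops of up to 12 bases, both inside the interval of 4.06 to 23.6%. The wide intervals of the shares come from the 39 peaks. The comparison away from coding starts and both classes of tiles were chosen after seeing the data.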
